A study of Mus musculus with 6 samples.

Results

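Ankrd1, Crim1, Dock5, Nuak2, Axl, Myof, Nt5e, Fjx1, Arhgef17 and Asap1 are genes widely used as readouts of the transcriptional coactivators YAP and TAZ. They were chosen by name, as classical YAP and TAZ targets outside the CCN family, with earlier results of these data known. They were read in the Müllerian ducts of E17.5 mouse embryos. All 10 were present among the 19505 gene symbols of the array table, each on 1 row. The Müllerian duct is the embryonic tube that forms the oviducts, uterus and upper vagina. The 3 control embryos had the genotype Lats1f/f,Lats2f/f, in which both kinase genes are floxed and intact. The 3 mutant embryos had the genotype Lats1f/f,Lats2f/f,Amhr2cre/+, so they carried the same floxed alleles and, in addition, Cre recombinase in 1 copy of Amhr2, the receptor gene of anti-Müllerian hormone. The genotypes therefore differed in Cre and in an Amhr2 allele as well as in what Cre deletes. Amhr2 is expressed in the mesenchyme around the duct, and the RNA was of whole dissected ducts, so cells outside the Cre lineage were measured too. Each of the 6 arrays held total RNA of 1 embryo, according to the labels, which call them biological replicates. No drug or other treatment is named.

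In the Hippo pathway the kinases LATS1 and LATS2 phosphorylate YAP and TAZ and hold them in the cytoplasm. When the kinases are inactive the coactivators enter the nucleus, bind TEAD factors on DNA and raise the transcription of target genes. Such targets include secreted matrix proteins, cell-surface receptors, regulators of small GTPases and proteins of the actin cytoskeleton, and which of them respond differs between tissues. Mutant and control ducts were compared to see how these 10 targets differ between the genotypes.

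Array medians lay between 6.87 and 6.95 on the log2 scale, and the background probes had medians between 5.35 and 5.88. Lats1 had a log2 fold change of -0.78 ± 0.21 (SE) and Lats2 of 0.22 ± 0.21, and neither passed (limma adjusted p of 0.0958 and 0.684). Every mutant array lay below every control array for Lats1, which passed as a fall in 2 of 14 alternatives, without rows under the median signal (adjusted p = 0.0453) and with a trended and robust prior (0.0359), in a range of 0.0359 to 0.286. Whether the probes fall inside the floxed exons was not known, and the deletion is therefore not checked by these signals. Amhr2 fell by 3.73. The library labelled control 3 stood apart: the mean deviation of 7 urothelial markers was 3.75 there and between -1.01 and -0.57 on the other 5 arrays, and that of 10 smooth muscle markers was 1.64 there and between -1.27 and 0.19 elsewhere. The counts of targets, and the changes of all 10, are therefore also given without it. Of 8 measured mesenchyme markers of the duct, all lay above background on every array, among them Osr2, with 15.16 or more in controls and 14.34 or more in mutants.

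TEAD factors bind the letters GGAATG and their complement CATTCC, so the 250 bases before the annotated start of each target were searched for them. RefSeq windows of build GRCm38.p6 matched 5 of the 10 genes. The 4 windows that follow are those of Ankrd1 and Crim1, which rose and hold the motif, of Axl, which holds it and did not pass, and of Myof, which rose and has no match. They run in the direction of transcription, and the capitals mark GGAATG.
Ankrd1, chr19:36119845-36120094, minus strand: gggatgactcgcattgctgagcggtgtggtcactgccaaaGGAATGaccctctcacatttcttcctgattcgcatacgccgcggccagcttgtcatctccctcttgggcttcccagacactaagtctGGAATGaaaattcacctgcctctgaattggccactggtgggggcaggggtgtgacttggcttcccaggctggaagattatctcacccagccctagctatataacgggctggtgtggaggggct
Crim1, chr17:78199998-78200247, plus strand: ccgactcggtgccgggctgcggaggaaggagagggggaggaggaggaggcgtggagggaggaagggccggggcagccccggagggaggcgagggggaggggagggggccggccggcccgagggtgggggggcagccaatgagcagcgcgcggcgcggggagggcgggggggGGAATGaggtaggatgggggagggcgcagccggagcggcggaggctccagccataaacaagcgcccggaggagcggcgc
Axl, chr7:25788734-25788983, minus strand: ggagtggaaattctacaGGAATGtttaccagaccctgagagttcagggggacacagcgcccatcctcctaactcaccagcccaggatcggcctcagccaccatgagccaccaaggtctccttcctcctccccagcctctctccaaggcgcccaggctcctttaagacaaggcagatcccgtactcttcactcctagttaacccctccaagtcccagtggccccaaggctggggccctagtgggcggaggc
Myof, chr19:38043578-38043827, minus strand: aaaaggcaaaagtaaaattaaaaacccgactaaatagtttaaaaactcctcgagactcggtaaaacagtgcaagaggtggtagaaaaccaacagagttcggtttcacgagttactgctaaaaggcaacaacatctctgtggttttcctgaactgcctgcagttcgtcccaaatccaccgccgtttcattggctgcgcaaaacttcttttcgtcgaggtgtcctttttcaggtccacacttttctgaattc
The Ankrd1 window held GGAATG at 210 and at 123 bases before the start, that of Crim1 at 79 and that of Axl at 233. Thus 3 of the 5 windows held the motif, and Myof and Nt5e had no match. Among all 32851 windows of 250 bases in the table, 12.6% held it on either strand, and 1.02% held it 2 or more times. Among 12 windows of 10 further YAP and TAZ targets, 3 held it and none held it 2 times. The AP-1 motif TGANTCA was in none of the 5 windows and in 6.75% of all windows. A match is a description of the letters in this window and does not show that a factor is bound.

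Ankrd1, Crim1, Dock5 and Myof were higher in mutant ducts by 3.22-fold to 12.2-fold. Of the 10 targets these 4 rose and 6 did not pass (limma, Benjamini-Hochberg adjusted p under 0.05 over all 22206 transcript clusters), beside 2.59% of all transcript clusters that rose. No target fell at that adjusted threshold, beside 0.666% of all transcript clusters that fell. At an unadjusted p under 0.05 in limma 7 targets rose and none fell. The share of all transcript clusters at that unadjusted threshold is not given here. The median log2 fold change of the 10 was 0.61 (all 22206: -0.01). Every mutant array lay above every control array for 6 targets, which were the 4 that rose with Nuak2 and Axl, and this held for 10.9% of all transcript clusters. The reverse order, every mutant array below every control array, held for none of the 10 and for 10.2% of all transcript clusters. The same 4 genes passed without control 3, with log2 fold changes of 3.30 for Ankrd1, 2.24 for Crim1, 1.84 for Dock5 and 1.84 for Myof. In that fit Fjx1 was at 0.63, Nuak2 at 0.60, Axl at 0.49, Arhgef17 at 0.44, Nt5e at 0.36 and Asap1 at 0.16, and these did not pass. In whole ducts, more cells of a type and more RNA per cell cannot be told apart, nor can fewer cells and less RNA per cell.

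**Figure D1:**
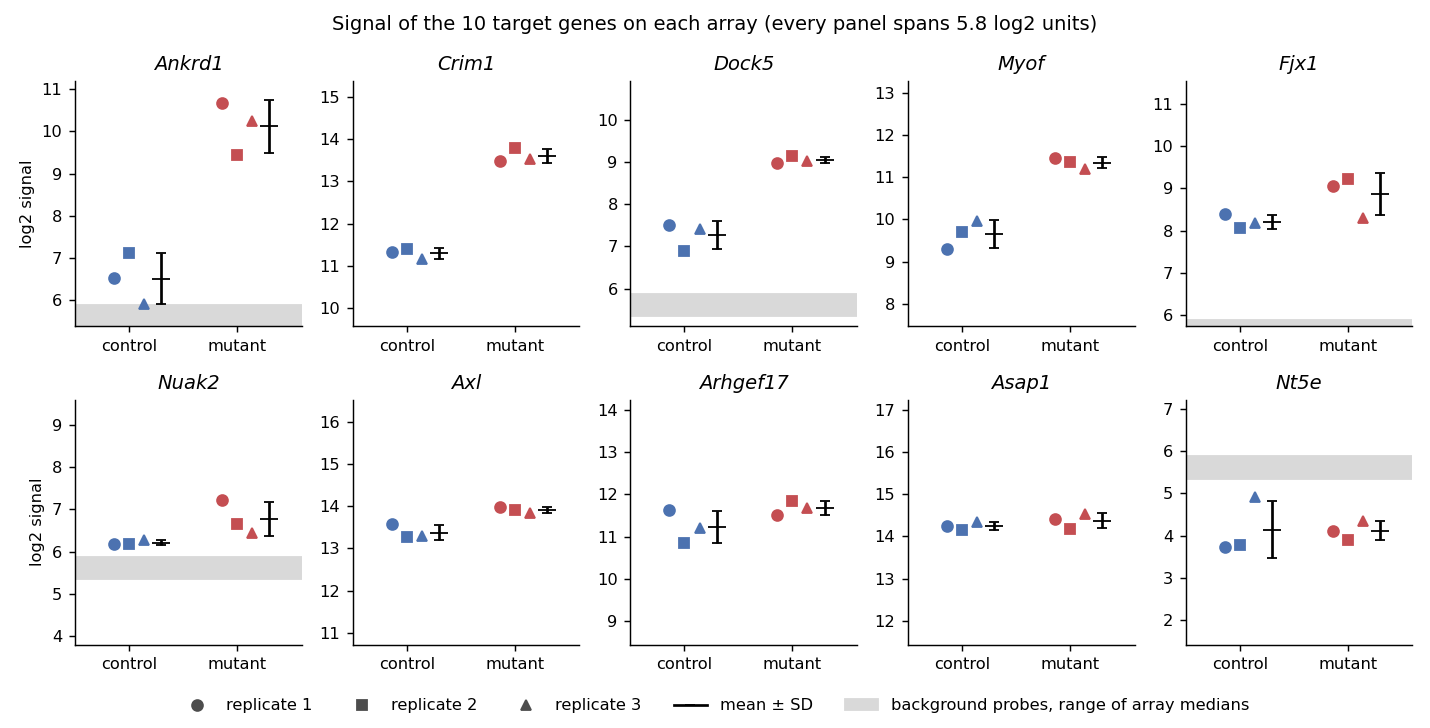
Log2 signal of the 10 targets on each array, control in blue and mutant in red, with the mean ± SD (n = 3) beside each group and the range of background medians in grey. Ankrd1, Crim1, Dock5 and Myof separate widely, Fjx1 has mutant 3 within the controls' reach, and Nt5e lies below background on all 6 arrays.

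Ankrd1 encodes an ankyrin repeat protein of the muscle sarcomere and nucleus that is induced by stretch. Its signal (transcript cluster TC1900001437.mm.2) was 6.52, 7.12 and 5.90 on the control arrays and 10.68, 9.43 and 10.24 on the mutant arrays. The lowest mutant value was thus 9.43, far above the highest control, and each group spread by more than 1 log2 unit. The means were 6.51 ± 0.61 and 10.12 ± 0.63 (SD, n = 3 each), a 12.2-fold rise with a log2 fold change of 3.60 ± 0.37 (SE; 95% interval 2.78 to 4.43; limma adjusted p = 0.000904). It was the 16th highest log2 fold change of the 22206 transcript clusters. The control 3 signal lay only 0.04 above that array's background median, so the fold is of little precision. With 1 array left out in turn it ranged from 3.30 to 3.95.

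The muscle relatives of Ankrd1 did not pass. Ankrd23, of the same family, had a log2 fold change of 0.08 ± 0.23 (limma adjusted p = 0.913), and Ankrd2 was below background on all 6 arrays. Among 14 striated muscle markers none passed in limma, also at an unadjusted p under 0.05, and 8 were below background on every array, including the cardiac genes Myh6, Myh7, Nppa and Nppb. The mean deviation of these markers ranged from -0.19 to 0.60 in control and from -0.18 to 0.01 in mutant ducts, highest in control 3, where Ankrd1 was lowest.

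Of the surface and secreted proteins, Crim1 rose and Axl, Fjx1 and Nt5e did not pass. Crim1 encodes a transmembrane protein with cysteine-rich repeats that binds bone morphogenetic proteins. Crim1 (transcript cluster TC1700001178.mm.2) had signals of 11.33, 11.41 and 11.15 in control and 13.48, 13.80 and 13.53 in mutant ducts. Both groups were tight and far apart, and the signal was at least 5.30 above background. The means of 11.30 ± 0.13 and 13.60 ± 0.17 (SD, n = 3 each) gave a 4.95-fold rise, a log2 fold change of 2.31 ± 0.17 (SE; limma adjusted p = 0.000197), the smallest adjusted p of the 10 targets. Of 5 further genes with chordin-like cysteine-rich repeats, Bmper, a secreted BMP regulator, rose by 1.27 ± 0.21 (limma adjusted p = 0.0105). Its signal was 8.51, 8.28 and 8.43 in control and 9.32, 9.69 and 10.03 in mutant ducts. Kcp, the relative with the highest signal, had a log2 fold change of -0.36 ± 0.17 and Chrd of -0.12 ± 0.16, and these did not pass (adjusted p of 0.376 and 0.796).

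Axl encodes a receptor tyrosine kinase of the TAM family, whose ligand is the secreted protein Gas6. Its signal (transcript cluster TC0700002644.mm.2) was 13.58, 13.26 and 13.29 in control and 13.99, 13.91 and 13.83 in mutant ducts. The groups did not overlap, though the gap between control 1 and mutant 3 was small. The log2 fold change was 0.54 ± 0.17 (SE; 95% interval 0.16 to 0.91), which did not pass (limma adjusted p = 0.150) except when the prior variance was trended on mean signal and made robust (adjusted p = 0.0470, within a range of 0.0470 to 0.348 over 14 alternatives).

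The ligand Gas6 rose by 0.93 ± 0.15 (limma adjusted p = 0.0109), from 11.33, 11.34 and 11.30 to 12.15, 12.30 and 12.30, and lost the call without control 1 (adjusted p = 0.0511). Pros1, the other TAM ligand gene, had a log2 fold change of 0.65 ± 0.22, and the receptors Tyro3 and Mertk of 0.39 ± 0.20 and 0.34 ± 0.35, and none of these passed. Macrophages also express TAM receptors, and macrophage markers moved with the groups. Of 13 measured, 9 rose and none fell in limma (12 and none at an unadjusted p under 0.05). The number that rose was between 6 and 8 with 1 array left out, and it was 8 without control 3. The mean deviation of the 13 markers was between -0.62 and -0.51 in control and between 0.44 and 0.75 in mutant ducts. Their part in the values of Axl and Gas6 was not tested.

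Fjx1 encodes a secreted relative of a fly kinase that modifies the Fat and Dachsous cadherins. Fjx1 (transcript cluster TC0200004217.mm.2) had signals of 8.39, 8.06 and 8.17 in control and 9.06, 9.22 and 8.29 in mutant ducts. Mutant 3 lay below control 1, while the other mutants were higher than every control. The log2 fold change was 0.65 ± 0.25 (SE; limma adjusted p = 0.250), and without mutant 3 it was 0.93 with an adjusted p of 0.0505, in a range of 0.0505 to 0.493 over 14 alternatives. None of 5 measured Fat and Dachsous genes passed. Fat4 had a log2 fold change of -0.96 ± 0.23 and Fat3 of 0.93 ± 0.22, with limma adjusted p of 0.0584 and 0.0624. Fat1 and Dchs1 were at -0.34 ± 0.26 and -0.34 ± 0.19.

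Nt5e encodes the surface enzyme that releases adenosine from AMP. The arrays read Nt5e (transcript cluster TC0900001128.mm.2) at 3.73, 3.77 and 4.91 in control and 4.10, 3.89 and 4.34 in mutant ducts. All 6 values were below the background median of their array, by 0.95 to 1.92, so a change could not be measured here. The log2 fold change was -0.03 ± 0.31 (SE) with a 95% interval from -0.72 to 0.67. Of 7 measured genes of adenosine formation, uptake and breakdown, none passed in limma, and at an unadjusted p under 0.05 none rose and 2 were lower. Adk, an adenosine kinase, had a log2 fold change of 0.11 ± 0.18 and Entpd1, which hydrolyses ATP to AMP, of -0.15 ± 0.34.

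Myof, a ferlin, serves in membrane fusion and repair. Myof signal (transcript cluster TC1900001461.mm.2) was 9.29, 9.71 and 9.95 in control and 11.46, 11.35 and 11.20 in mutant ducts. The lowest mutant exceeded the highest control, control 3, by more than the whole spread of either group. The means were 9.65 ± 0.33 and 11.34 ± 0.13 (SD, n = 3 each), a 3.22-fold rise with a log2 fold change of 1.69 ± 0.20 (SE; limma adjusted p = 0.00201). Dysferlin (Dysf) had a log2 fold change of 0.34 ± 0.25 (limma adjusted p = 0.596), and Otof and Fer1l5 were below background on all arrays.

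Nuak2 encodes an AMPK-related kinase that acts on myosin phosphatase. Its signal (transcript cluster TC0100001190.mm.2) was 6.17, 6.18 and 6.28 in control and 7.23, 6.66 and 6.45 in mutant ducts. The groups did not overlap, but mutant 3 was 0.57 and the control arrays 0.43 to 0.83 above background. The log2 fold change was 0.57 ± 0.21 (SE; limma adjusted p = 0.242), and it was 0.34 without mutant 1. Its paralog Nuak1 rose by 2.80 ± 0.26 (limma adjusted p = 0.000551), with 10.52, 11.52 and 10.91 in control and 13.83, 13.97 and 13.55 in mutant ducts, and passed in all 14 alternatives. None of the 5 other genes of the Nuak2 list passed. Ppp1cb, a catalytic subunit of myosin phosphatase, had a log2 fold change of -0.21 ± 0.16, and Ppp1r12a, its targeting subunit, of 0.33 ± 0.19.

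Among the regulators of small GTPases, Dock5 rose and Arhgef17 and Asap1 did not pass. Dock5 encodes an exchange factor that activates Rac. The arrays read Dock5 (transcript cluster TC1400002293.mm.2) at 7.50, 6.90 and 7.41 in control and 8.98, 9.13 and 9.02 in mutant ducts. The mutant arrays were nearly equal, and all stood well above the controls. The means were 7.27 ± 0.32 and 9.04 ± 0.075 (SD, n = 3 each), a 3.42-fold rise with a log2 fold change of 1.77 ± 0.20 (SE; limma adjusted p = 0.00134).

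Of 10 genes of the DOCK and ELMO module, 3 rose and none fell in limma, beside 2.59% and 0.666% of all transcript clusters. At an unadjusted p under 0.05 4 rose and none fell. Dock4, at 0.68 ± 0.16 (limma adjusted p = 0.0593), did not pass. It made 4 rises with array weights, either filter on dim rows or the trended and robust prior. None rose without mutant 1 or without mutant 2. Dock2, the leukocyte member, rose by 1.37 ± 0.25 (limma adjusted p = 0.0174), but passed in only 1 of 6 leave-one-out fits, that without control 3 (adjusted p in the other 5 up to 0.0802). The macrophage markers given beside Axl moved with it, and their part was not tested. Bcar1, a Crk-binding adhesion adaptor, rose by 1.12 ± 0.19, a call lost without mutant 1 or mutant 2 (adjusted p up to 0.0586). The DOCK partner Elmo2 rose by 0.72 ± 0.16 and lost its call with any 1 array left out (limma adjusted p from 0.0710 to 0.183) and with the replicate number as a block. Dock1 had a log2 fold change of -0.26 ± 0.16 and Rac1, the GTPase itself, of 0.06 ± 0.19, and neither passed.

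Arhgef17 had a signal (transcript cluster TC0700003827.mm.2) of 11.62, 10.85 and 11.20 in control and 11.52, 11.84 and 11.67 in mutant ducts. Control 1 lay above mutant 1, so the groups overlapped. The log2 fold change was 0.46 ± 0.22 (SE; 95% interval -0.03 to 0.94; limma adjusted p = 0.368). Asap1, which inactivates Arf GTPases and remodels podosomes, had a signal (transcript cluster TC1500001630.mm.2) of 14.25, 14.16 and 14.34 in control and 14.41, 14.17 and 14.52 in mutant ducts. The groups were interleaved at a signal at least 8.37 above background. Its log2 fold change was 0.12 ± 0.17 (SE; 95% interval -0.26 to 0.49; limma adjusted p = 0.807), an interval that leaves out a change as large as that of Dock5. Arf4 and Arf1 were at -0.04 ± 0.16 and 0.20 ± 0.17, and none of 6 genes of the Asap1 list passed.

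**Figure D2:**
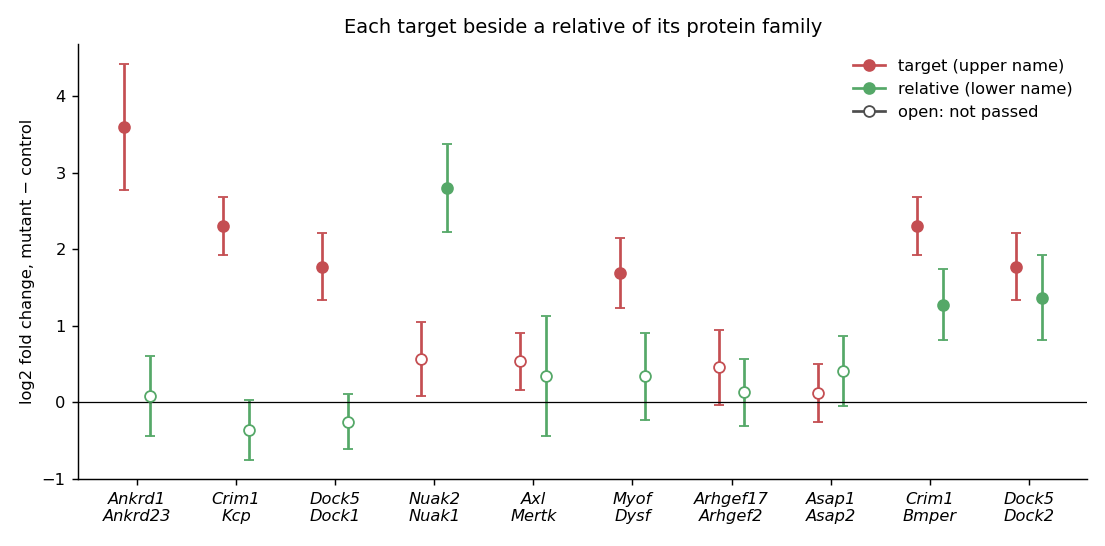
Log2 fold change (mutant minus control) with its 95% interval for 10 pairs of a target in red and a relative of the same protein family in green; filled points passed an adjusted p of 0.05. The relatives Ankrd23, Kcp, Dock1 and Dysf are open beside filled targets, Bmper and Dock2 are filled beside filled targets, and Nuak1 is filled beside the open Nuak2.

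Whether a target and its relative changed unequally was tested on the difference of their log2 signals in each array, for 10 pairs chosen after the values were seen. Nuak1 rose by 2.23 ± 0.36 (SE) more than Nuak2. Ankrd1 exceeded Ankrd23 by 3.52 ± 0.46, Crim1 exceeded Kcp by 2.67 ± 0.14 and Bmper by 1.03 ± 0.25, Dock5 exceeded Dock1 by 2.03 ± 0.16 and Myof exceeded Dysf by 1.35 ± 0.35. Each of these 6 had a two-sided exact permutation p of 0.1, the smallest that 3 against 3 arrays allow (0.167 after Benjamini-Hochberg adjustment over 10 pairs), so none could pass. The differences of Axl from Mertk (0.19 ± 0.50), Dock5 from Dock2 (0.41 ± 0.26), Arhgef17 from Arhgef2 (0.33 ± 0.28) and Asap1 from Asap2 (-0.29 ± 0.20) had exact permutation p of 0.7, 0.3, 0.3 and 0.3. Which relative is set beside Crim1 and Dock5 thus changes the size of the difference.

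The 10 targets belong to a wider group of genes used as YAP and TAZ readouts, and 12 others of that group were read in the same fit. Of these 6 rose and none fell in limma, beside 2.59% and 0.666% of all transcript clusters, and at an unadjusted p under 0.05 7 rose and none fell. The count was 6 without control 3 as well. The 12 were listed with earlier results of these data known, so the counts describe them and are no independent support. The median log2 fold change of the 12 was 0.73 beside 0.61 for the 10. The matrix genes Ccn1 and Ccn2 rose by 4.18 ± 0.26 and 3.76 ± 0.22, and Amotl2, a scaffold that binds YAP, by 2.83 ± 0.23. Igfbp3, which binds insulin-like growth factors, rose by 2.06 ± 0.18, the ligand Tgfb2 by 1.55 ± 0.16 and F3, tissue factor, by 1.00 ± 0.23. The F3 call (limma adjusted p = 0.0492) survived in 1 of 6 leave-one-out fits, that without control 3 (adjusted p in the other 5 up to 0.150). Ptpn14, Lats2, Rbms3, Gadd45a, Foxf2 and Ccdc80 had log2 fold changes between -0.01 and 0.45 and did not pass, of which Foxf2 was below background. Lats2 is itself floxed and open to deletion by Cre in mutants. Its value therefore cannot be read as the response of a target, though it stays in the counts. Of the coactivators, Wwtr1, which encodes TAZ, rose by 0.99 ± 0.20 (limma adjusted p = 0.0288), a call lost without control 1, control 3, mutant 1 or mutant 3 and with the replicate number as a block, and Yap1 was at -0.25 ± 0.18 (adjusted p = 0.578).

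**Figure D3:**
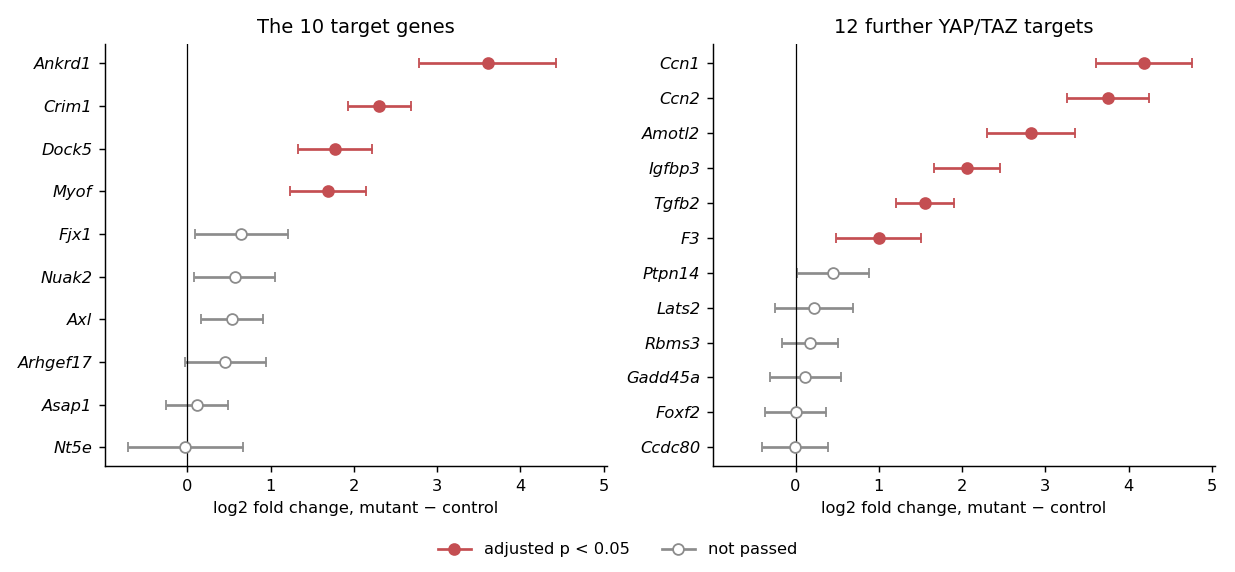
Log2 fold change (mutant minus control) with its 95% interval for the 10 targets and for 12 further YAP and TAZ targets, ordered by size; red filled points passed an adjusted p of 0.05. In each panel some targets lie above 1.5 and the rest that did not pass lie below 0.7.

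The order of the changes among the 10 had a wide gap. Dock5 and Myof, at 1.77 and 1.69, did not differ beyond their errors, nor did Fjx1, Nuak2, Axl and Arhgef17, between 0.65 and 0.46. Between Myof and Fjx1 no target lay, and the lowest 95% bound of the upper 4, 1.23 for Myof, was above the 95% bound of Fjx1 at 1.21. Leaving out 1 array in turn kept Ankrd1, Crim1, Dock5 and Myof past the threshold in all 6 fits, with the highest limma adjusted p at 0.0141 for Myof. None of the other 6 targets passed in any of those fits.

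**Figure D4:**
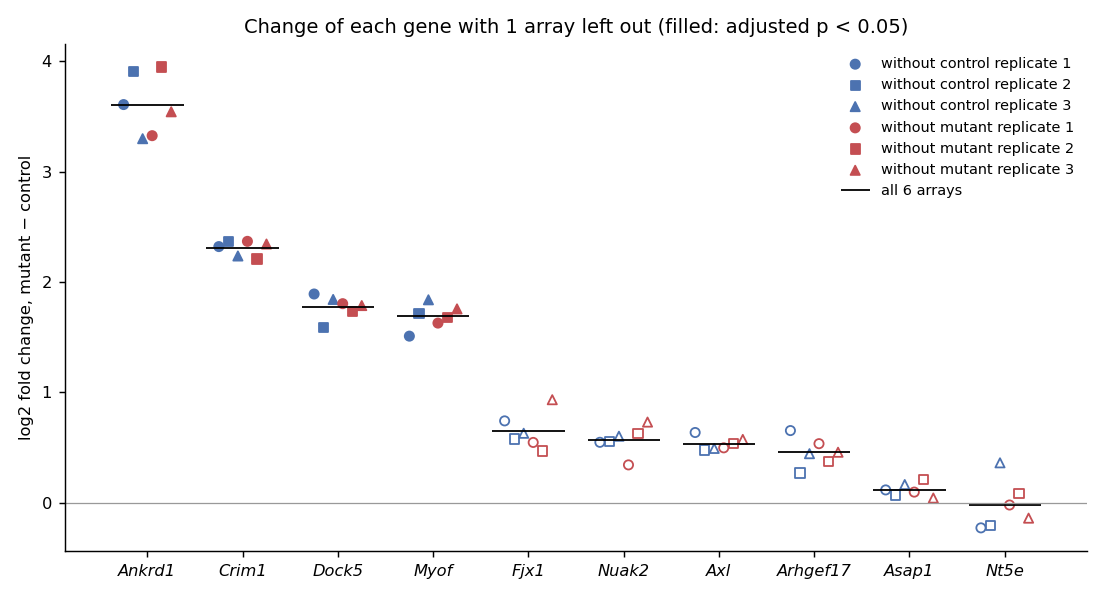
Log2 fold change (mutant minus control) of each of the 10 targets with 1 array left out, with the value over all 6 arrays as a black line; filled symbols passed an adjusted p of 0.05. Every symbol is filled for Ankrd1, Crim1, Dock5 and Myof and every symbol is open for the other 6 targets.

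Across arrays, the mean deviation of the 10 targets was -0.56, -0.65 and -0.54 in control 1 to control 3 and 0.69, 0.54 and 0.51 in mutant 1 to mutant 3. Control 3 was thus no outlier for the mean of the 10. It was the lowest control for Ankrd1 and Crim1 and the highest for Myof, Nt5e, Nuak2 and Asap1. Mutant 1 was the highest array for Ankrd1, Myof, Axl and Nuak2, as it was for Ccn1, Ccn2 and Amotl2, whereas mutant 2 was the highest for Crim1, Dock5, Fjx1 and Arhgef17. Immediate early and stress genes, which handling of tissue can induce, moved with the same groups. Of 14, 5 rose and none fell in limma, and at an unadjusted p under 0.05 9 rose and none fell. The count was 3 without control 2 or without mutant 1 and 7 without control 3, and Egr1 (1.73 ± 0.34) and Hspa1b (2.57 ± 0.46) each lost the call in 3 of 6 leave-one-out fits. Their mean deviation was -0.72, -0.72 and -0.23 in control and between 0.53 and 0.60 in mutant ducts. Of 8 mesenchyme markers Amhr2 fell and 7 did not pass. Col1a1, at 0.04, was the only 1 of the 8 with a positive log2 fold change, and their median was -0.51. At an unadjusted p under 0.05 in limma none rose and 4 were lower, Amhr2 and Hoxa11 (-1.09 ± 0.26) among them. The mean deviation of the 7 without Amhr2 was 0.15 to 0.33 in control and -0.41 to -0.06 in mutant ducts. The mean deviations of endothelial, mesothelial and epithelial markers overlapped between the groups, though 1 gene rose in each list. These were Kdr (1.10 ± 0.16), Msln (1.48 ± 0.22) and Lhx1 (1.20 ± 0.25, below background on all arrays). Of the smooth muscle markers Tagln rose by 2.92 ± 0.31 and Synpo2 fell by 2.64. Without control 3, which stood apart for this list, 3 rose and 1 fell. Acta2 (2.89) and Cnn1 (3.08) passed in that fit and in no other. The part of these lists in the values of the 10 targets was not tested.

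**Figure D5:**
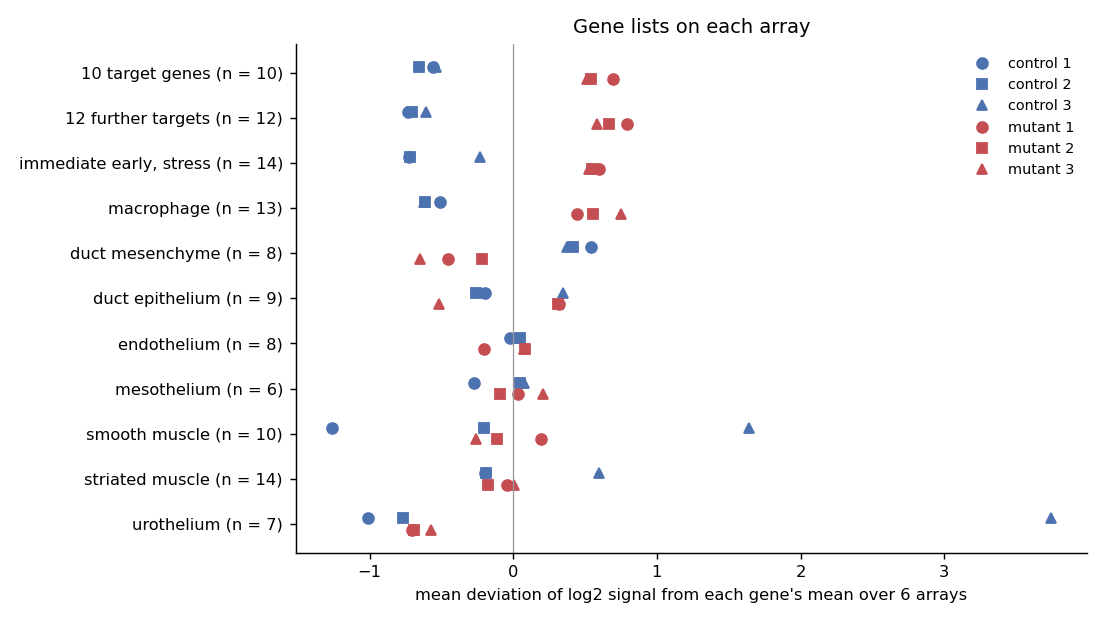
Mean deviation of log2 signal from each gene's mean over the 6 arrays, for the 10 targets, 12 further targets and lists of stress genes and cell type markers, with control arrays in blue and mutant arrays in red. The 10 targets lie between -0.65 and -0.54 in control and between 0.51 and 0.69 in mutant ducts, while the urothelial and smooth muscle lists set control 3 apart.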

How the data were processed

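The deposited table gives log2 signals, 1 column for each Affymetrix array. The submitters' processing notes name Transcriptome Analysis Console 4.0. How probes were summarised and normalized, and the genome build, are not given in the sources used here. Deposited log2 values were used without further normalization. Of 28846 rows, 22206 transcript clusters were tested and 6640 control rows were left out. A signal below the median of its array's background probes is called below background. Symbols were taken from the platform annotation and brought up to date through RefSeq gene IDs, and 172 of 182 listed genes matched.

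Each transcript cluster was fitted with genotype as the only term by lmFit and eBayes of limma 3.58.1 (R 4.3.3), with two-sided p-values adjusted by Benjamini-Hochberg over all rows at 0.05. The fit was tested on simulated data. The text names all 10 targets, every further listed target, the relatives that passed and up to 2 with the highest signal in each list. The list of relatives of Arhgef17 is not reported here beyond 1 pair. Tyro3, Otof, Fat3, Dchs1, Asap2, Dock4 and the 10 gene pairs were chosen after their values were seen. The members and lists were chosen with earlier results of these data known. Where a gene had several rows, the row with the highest mean was to be used. Promoter windows came from RefSeq, build GRCm38.p6. Alternatives were quantile normalization, a common median, 2 filters on dim rows, a trended and robust variance prior, the replicate number as a block, array weights, the mean of a gene's rows and each array left out. Plots used matplotlib 3.10.9 (Python 3.11.15).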

Additional observations from a re-analysis of the deposited data

How the results depend on the processing

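Ankrd1, Crim1, Dock5 and Myof passed in each of the 14 alternatives, and with the trended and robust prior Axl passed too, for 5 rises. No target fell in any of them. The sign of Nt5e, which lay below background, turned with array weights (0.026), without control 3 (0.36) and without mutant 2 (0.08), and it ranged from -0.23 to 0.36 with 1 array left out. Of 54 measured relatives 6 rose and none fell in limma (11 and 4 at an unadjusted p under 0.05). With 1 array left out between 3 and 5 rose. Under array weights 7 rose, with Dock4 added. Under either filter on dim rows or the other variance prior 8 rose, with Dock4 and Fat3 added. In these 4 settings and under quantile normalization 1 relative fell, Fat4. The cause was not tested. With the replicate number as a block, 4 targets, 5 further targets (without F3) and 5 relatives (without Elmo2) rose, the calls of Wwtr1, Aif1 and Lhx1 were lost, Hoxa11 and Fcer1g passed, and 633 transcript clusters passed in place of 723. The signals gave no sign that the numbers pair the arrays. Deviations of same-numbered arrays correlated at 0.0078, 0.042 and -0.0030, and not every array correlated best with its own number. With 3 arrays a group these correlations cannot exclude a pairing. The block changed no call among the 10. Over all transcript clusters 723 passed, 384 without control 1 and 360 without mutant 1. With 3 arrays a group and background near the control signal of Ankrd1 and all signals of Nt5e, the size of their changes is of little precision.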
